A study of Mus musculus with 6 samples.

Results

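The arginase and polyamine genes are 10 genes, chosen by symbol from the 22554 genes of the RNA-sequencing count table. They are the arginases *Arg1* and *Arg2*, ornithine decarboxylase *Odc1*, its regulators *Oaz1*, *Oaz2* and *Azin1*, the synthesis genes *Srm*, *Sms* and *Amd1*, and the catabolic gene *Sat1*. They were measured in group 2 innate lymphoid cells (ILC2s) sorted from the lungs of wild-type BALB/cByJ mice labelled as 8 weeks old. The study's methods give the mice as female, whereas its statement on randomization names male mice. All mice had received 3 intranasal doses of 0.5 µg recombinant mouse IL-33, so that every library is from IL-33-activated ILC2s (aILC2s) and no unstimulated cells are included. The cells were then cultured for 24 h at 50000 cells per mL with rmIL-2 and rmIL-7, each at 10 ng/mL, and with either CD200-Fc or an isotype control. The labels and methods name no IL-33 in this culture, whereas the study's figure legends do. CD200-Fc, a fusion of the CD200 protein to an antibody Fc part, engages the inhibitory receptor CD200R. The comparison asks which of the 10 transcripts differed when that receptor was engaged, in 3 CD200-Fc libraries (35, 36 and 38) and 3 isotype libraries (16, 17 and 18). Sources used here do not tie a library to a mouse or a culture, and p-values therefore reflect only how these libraries spread, which may be technical.

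Arginase splits arginine into urea and ornithine. Ornithine decarboxylase turns ornithine into putrescine, and 2 synthases extend putrescine to spermidine and then to spermine, with aminopropyl groups that depend on the enzyme AMD1. Cells hold these polyamines in a narrow range, mainly by the antizymes, proteins that bind ornithine decarboxylase and send it to the proteasome. Lung ILC2s are known for constitutive expression of *Arg1*, the cytosolic arginase, whereas *Arg2* encodes the mitochondrial form.

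Library totals lay between 24038189 and 33321709 counts for CD200-Fc and between 20096555 and 23239853 counts for isotype. Levels are given as CPM, read counts divided by library totals (in units of 1000000 counts) that were adjusted by the trimmed mean of M-values (TMM). A gene was called changed at a Benjamini-Hochberg adjusted p under 0.05 in edgeR's quasi-likelihood test over 14124 genes. All 10 ILC2 markers examined were detected, and their summed level was 5602 to 5835 CPM in CD200-Fc libraries and 5250 to 5323 CPM in isotype libraries. Of the 10, *Ptprc* (CD45) and *Klrg1* were called higher, *Ptprc* at 701 ± 6.29 CPM with CD200-Fc and 567 ± 12.8 CPM with isotype (SD, n = 3 each). None of the 10 was called lower by edgeR. *Rora* (201 ± 9.67 CPM with CD200-Fc and 235 ± 8.75 CPM with isotype, edgeR adjusted p = 0.0540) and *Gata3* (1073 ± 15.5 CPM with CD200-Fc and 1123 ± 57.6 CPM with isotype, edgeR adjusted p = 0.506) lay below isotype in every CD200-Fc library. For *Gata3* this was nearly a tie, with 1085.38 CPM in CD200-Fc library 36 and 1085.46 CPM in isotype library 16. *Id2* (1646 ± 47.7 and 1537 ± 54.0 CPM, edgeR adjusted p = 0.240) and *Icos* (902 ± 42.5 and 816 ± 3.78 CPM, edgeR adjusted p = 0.114) lay above in every CD200-Fc library, as *Ptprc* and *Klrg1* did. The rest of the 10 overlapped. Over all tested genes 11.6% lay above in this way and 11.2% below, and 1.48% were called higher and 0.595% lower. In bulk libraries, fewer cells of a type and less RNA per cell cannot be told apart.

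Of the 10 genes, 9 were abundant enough to test, and 1 of them, *Arg1*, rose with CD200-Fc. None of the 9 was called lower. Over all tested genes 1.48% were called higher and 0.595% lower. The other 8 tested genes did not pass the adjusted threshold, although the libraries of the 2 conditions did not overlap for 5 of them. *Odc1*, *Azin1* and *Amd1* lay above isotype in every CD200-Fc library, as *Arg1* did, while *Oaz1* and *Srm* lay below. That makes 4 genes above and 2 below, against 11.6% of all tested genes above and 11.2% below. At an unadjusted p under 0.05, 3 genes were higher (*Arg1*, *Odc1*, *Azin1*) and 2 lower (*Oaz1*, *Srm*), against 9.43% and 7.69% of all tested genes. The median log2 fold change was 0.06 over the 9 genes and -0.003 over all tested genes.

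**Figure D1:**
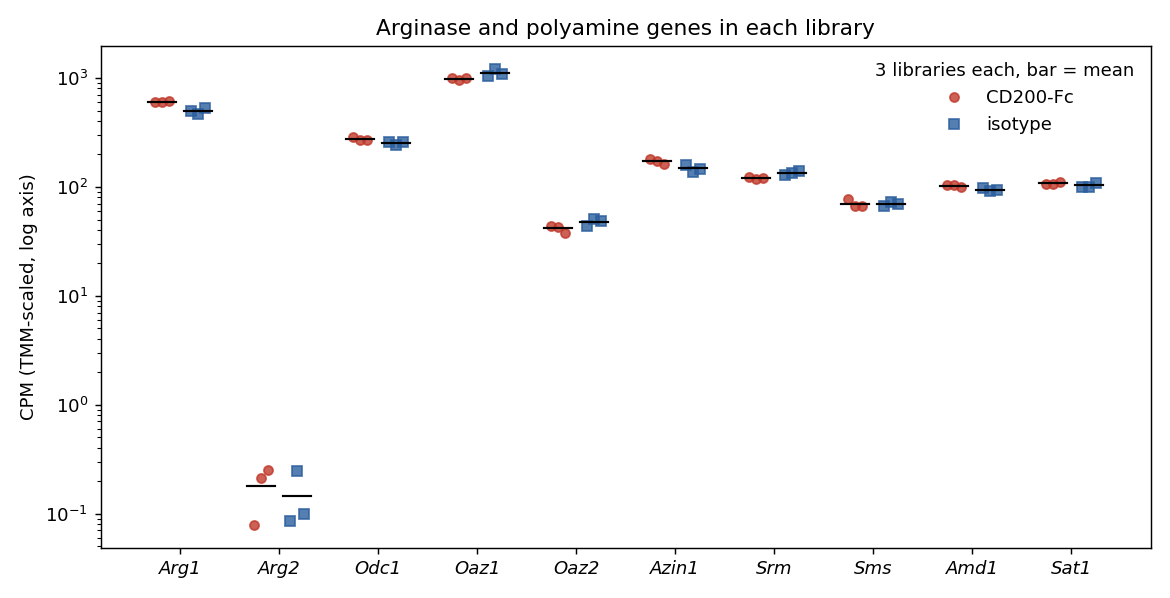
CPM of each of the 10 genes (log axis) in the 3 CD200-Fc libraries (red circles) and the 3 isotype libraries (blue squares), with black bars at the group means. *Oaz1* and *Arg1* lie highest in CPM, *Arg2* lies under 1 CPM in every library, and the conditions are close together for every gene.

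*Arg1* (mm10 chr10:24915221-24927484, minus strand) was the gene of the set that rose. It had 593, 601 and 616 CPM in CD200-Fc libraries 35, 36 and 38, against 494, 466 and 529 CPM in isotype libraries 16, 17 and 18. All CD200-Fc values were higher than all isotype values, and the CD200-Fc libraries were the more tightly grouped. The means were 603 ± 11.6 CPM with CD200-Fc and 497 ± 31.2 CPM with isotype (SD, n = 3 each), a 1.22-fold difference. The log2 fold change was 0.28 (SE 0.05, 95% interval 0.17 to 0.39, edgeR adjusted p = 0.0165). By mean level, *Arg1* stood at percentile 98.4 of the tested genes. Leaving out CD200-Fc library 35, 36 or 38 ended the call, with edgeR adjusted p = 0.0725, 0.0585 and 0.0690, while leaving out any isotype library did not.

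*Arg1* is also a gene of macrophages, so their markers were read in the same libraries. Of 12 macrophage and monocyte markers listed, 8 were in the table, and their summed level was 8.51 to 47.7 CPM with CD200-Fc and 13.2 to 35.5 CPM with isotype. *Adgre1*, which encodes F4/80, was at 0 in all 3 CD200-Fc libraries and at most 0.249 CPM in isotype libraries. *Chil3*, which is abundant in alveolar macrophages, had 0, 0 and 23.7 CPM with CD200-Fc, against 7.75, 25.7 and 5.82 CPM with isotype. *Lyz2* had 0, 0.0608 and 9.78 CPM with CD200-Fc, against 0.214, 1.04 and 1.74 CPM with isotype, and *Cd68* had 4.29, 3.50 and 6.75 CPM with CD200-Fc, against 2.70, 4.44 and 3.63 CPM with isotype. *Chil3*, *Lyz2* and *Cd68* overlapped between the conditions. Among the markers, *Ly6c2*, which lymphocytes can also express, was called higher, with 7.12, 4.83 and 6.55 CPM with CD200-Fc against 2.53, 2.52 and 3.68 CPM with isotype (log2 fold change 1.08, edgeR adjusted p = 0.0369). Of the markers of other cell types, *Ccr3* of eosinophils had 10.5, 5.66 and 9.24 CPM with CD200-Fc, against 4.67, 5.08 and 5.02 CPM with isotype (edgeR adjusted p = 0.0866). It was the only 1 of 4 eosinophil markers listed that was in the count table. *Epcam* of epithelium had 34.8, 29.8 and 35.3 CPM with CD200-Fc, against 25.9, 24.8 and 25.4 CPM with isotype (edgeR adjusted p = 0.0610). *Cdh1* of the same list had 0.157, 0.243 and 0.166 CPM with CD200-Fc, against 0.0428, 1.09 and 0.0995 CPM with isotype. *Sftpc* and *Scgb1a1* were at 0 in all libraries. *Cpa3* of mast cells and basophils was at 0.90 on the log2 scale (edgeR adjusted p = 0.252), *Fcer1a* of the same list at 0.74 and *Mcpt8* at 0.10. *Mcpt4* was too low to test. The summed T cell markers had 3.16 to 4.33 CPM with CD200-Fc and 3.78 to 4.50 CPM with isotype. In the same order, B cell markers summed to 0.157 to 0.414 and 0.171 to 0.296 CPM, and neutrophil markers to 0.213 to 0.905 and 0.199 to 1.04 CPM. The part of these other cell types in the *Arg1* result was not tested.

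*Arg2* (mm10 chr12:79130777-79156301, plus strand) was near the limit of detection. Its counts were 2, 7 and 6 in CD200-Fc libraries and 2, 5 and 2 in isotype libraries, too few to test. The log2 ratio of *Arg1* to *Arg2* counts averaged 11.9 in both conditions. *Arg2* overlaps *Vti1b* on the opposite strand, and the sources used here do not state whether counting used strand. *Nos2*, the inducible nitric oxide synthase that uses the same substrate as arginase, had no count in 5 libraries and 1 count in isotype library 18.

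*Odc1* (mm10 chr12:17544794-17551505, plus strand) encodes the rate-limiting enzyme of polyamine synthesis. Its levels were 284, 270 and 267 CPM with CD200-Fc, against 255, 241 and 257 CPM with isotype. The conditions did not overlap, with CD200-Fc library 38 and isotype library 18 the closest to each other. The log2 fold change of 0.12 (SE 0.05, 95% interval 0.01 to 0.24) did not pass the adjusted threshold (edgeR adjusted p = 0.241). In none of the 19 alternatives was *Odc1* called.

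The antizymes *Oaz1* (mm10 chr10:80826656-80829290, plus strand) and *Oaz2* (mm10 chr9:65668001-65690300, plus strand) carry a signal in their own coding sequence. An in-frame stop codon interrupts it, and polyamines promote a shift of the reading frame that lets the ribosome read on into the full protein. Stretches around that stop codon are shown because they are the polyamine sensor of the pathway, from GENCODE vM21 transcripts Oaz1-205 and Oaz2-203 on GRCm38 (mm10), with the stop codon in capitals.
Oaz1: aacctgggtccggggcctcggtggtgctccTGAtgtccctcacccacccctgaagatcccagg
Oaz2: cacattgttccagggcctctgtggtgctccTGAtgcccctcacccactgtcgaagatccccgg
The stretches share 51 of 63 bases, including the 10 bases just before the stop codon. Counts of the transcript do not show how often the frame is shifted, so the values that follow are of RNA only.

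*Oaz1* was listed at 996, 961 and 994 CPM with CD200-Fc, against 1041, 1210 and 1089 CPM with isotype. All CD200-Fc libraries lay below all isotype libraries, and isotype library 17 stood highest. The means were 983 ± 19.7 CPM with CD200-Fc and 1113 ± 87.3 CPM with isotype (SD, n = 3 each), with a log2 fold change of -0.18 (SE 0.05, 95% interval -0.29 to -0.07). The edgeR adjusted p was 0.0946, over the threshold, while DESeq2 gave an adjusted p of 0.0235 and called it. Without isotype library 17 the log2 fold change was -0.11 (edgeR adjusted p = 0.243), and without isotype library 16 the gene was called (edgeR adjusted p = 0.0475). *Oaz2*, the less abundant antizyme, had 43.8, 42.5 and 38 CPM with CD200-Fc, against 43.3, 50.7 and 48.2 CPM with isotype. Its conditions overlapped, and its log2 fold change was -0.19 (SE 0.09, 95% interval -0.39 to 0.01, edgeR adjusted p = 0.309).

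*Azin1* (mm10 chr15:38487427-38519266, minus strand) encodes the antizyme inhibitor, a relative of ornithine decarboxylase without its activity, which binds antizyme and so frees the enzyme. It had 180, 171 and 162 CPM with CD200-Fc, against 159, 137 and 147 CPM with isotype. All CD200-Fc libraries were higher, by a narrow margin between CD200-Fc library 38 and isotype library 16. The log2 fold change was 0.21 (SE 0.07, 95% interval 0.07 to 0.36), with an edgeR adjusted p of 0.112. DESeq2 called it (adjusted p = 0.0286). *Azin1* overlaps the non-coding gene *Gm49077* on the opposite strand. The 3 genes called by DESeq2 were *Arg1* and *Azin1*, higher, and *Oaz1*, lower, where that tool called 6.47% of the 8899 genes with an adjusted p higher and 3.39% lower.

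**Figure D2:**
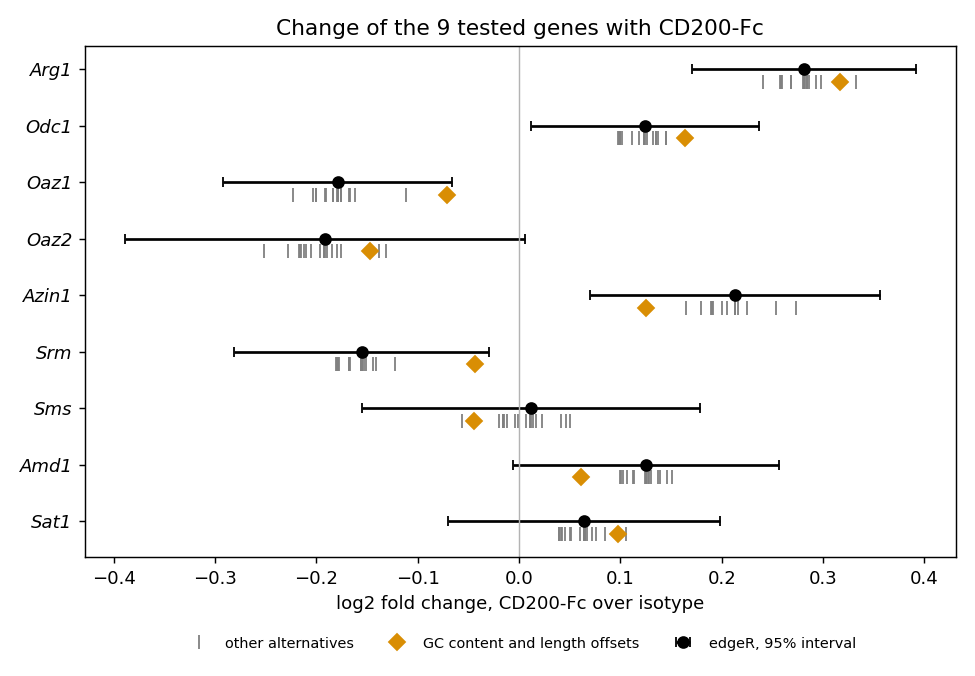
log2 fold change, CD200-Fc over isotype, of the 9 tested genes, with black circles and bars for the edgeR estimate and its 95% interval, orange diamonds for the fit with GC content and length offsets, and grey ticks for each of the other alternatives. *Arg1* has the highest estimate at 0.28, and the diamonds of *Oaz1* (-0.07), *Azin1* (0.12) and *Srm* (-0.04) lie closer to 0 than their circles.

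Set against the antizymes within each library, both *Odc1* and *Azin1* were higher with CD200-Fc. The log2 ratio of *Odc1* counts to the summed counts of *Oaz1* and *Oaz2* was -1.87, -1.89 and -1.95 in CD200-Fc libraries and -2.09, -2.39 and -2.14 in isotype libraries. The difference was 0.30, with no overlap. For *Azin1* the log2 ratios to the antizymes were -2.53, -2.55 and -2.67 with CD200-Fc and -2.77, -3.20 and -2.95 with isotype. The difference was 0.39, again with no overlap. On a linear scale there were 0.267 *Odc1* counts per antizyme count with CD200-Fc and 0.217 with isotype, and 0.167 and 0.127 *Azin1* counts. A two-sided exact permutation test gave p = 0.1 for each ratio, the smallest that 3 libraries against 3 allow, so that neither can pass a threshold of 0.05. Both ratios share the antizyme counts, and neither is independent of the *Oaz1*, *Odc1* and *Azin1* values above. Most antizyme counts are of *Oaz1*, which lay below isotype in every CD200-Fc library, while *Odc1* and *Azin1* lay above. The lack of overlap, and with it the exact permutation p of 0.1, followed from those values and adds no further support. Without isotype library 17 the differences were 0.21 for *Odc1* and 0.28 for *Azin1*. With counts divided by offsets for GC content and transcript length, a check chosen after seeing the data, the differences were 0.24 for *Odc1* and 0.20 for *Azin1*. The conditions still did not overlap, but for *Azin1* they nearly touched, at -2.77 in CD200-Fc library 38 and -2.79 in isotype library 16.

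**Figure D3:**
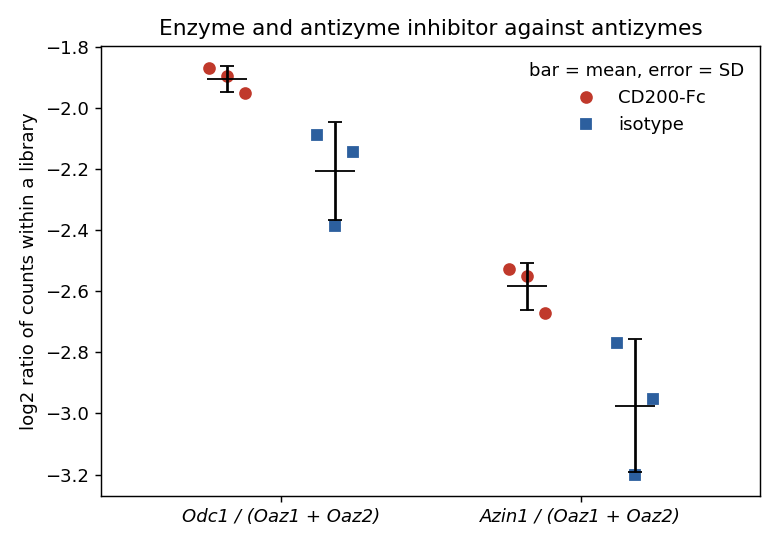
log2 ratio of *Odc1* counts (left) and of *Azin1* counts (right) to the summed counts of *Oaz1* and *Oaz2* within each library, CD200-Fc as red circles and isotype as blue squares, with bars at the mean ± SD of 3 libraries. The CD200-Fc libraries lie above the isotype libraries in both ratios, by 0.30 and 0.39 on average (0.24 and 0.20 with GC content and length offsets), and isotype library 17 lies lowest.

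The 3 genes of spermidine and spermine synthesis differed in direction and none was called. *Amd1* (mm10 chr10:40287458-40302188, minus strand), the decarboxylase that supplies the aminopropyl donor, had 103, 104 and 99.9 CPM with CD200-Fc, against 97.0, 91.1 and 93.8 CPM with isotype. All CD200-Fc libraries were higher, with a log2 fold change of 0.13 (SE 0.06, 95% interval -0.01 to 0.26, edgeR adjusted p = 0.321). *Srm* (mm10 chr4:148591503-148594993, plus strand), spermidine synthase, had 123, 118 and 120 CPM with CD200-Fc, against 129, 133 and 139 CPM with isotype. Here every CD200-Fc library was lower, with a log2 fold change of -0.16 (SE 0.06, 95% interval -0.28 to -0.03, edgeR adjusted p = 0.187). *Sms* (mm10 chrX:157443855-157492287, minus strand), spermine synthase, had 76.9, 66.3 and 66.7 CPM with CD200-Fc, against 66.7, 72.0 and 69.6 CPM with isotype. Its libraries overlapped, and the 95% interval of its log2 fold change ran from -0.16 to 0.18.

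*Sat1* (mm10 chrX:155213132-155216449, minus strand) encodes the acetyltransferase that marks spermidine and spermine for breakdown or export. It had 105, 106 and 111 CPM with CD200-Fc, against 99.7, 100 and 108 CPM with isotype. The conditions overlapped, and the log2 fold change was 0.06 (SE 0.06, 95% interval -0.07 to 0.20, edgeR adjusted p = 0.664).

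Transcript length and GC content moved with the calls over all genes. The genes called higher had a median length of 4221 nucleotides and 44.5% GC, those called lower 1834 nucleotides and 52.6% GC, and all tested genes with an annotation 2787 nucleotides and 49.7% GC. Among the polyamine genes, *Oaz1* (1071 nucleotides, 56.9% GC) and *Srm* (1338 nucleotides, 59.8% GC) are short and GC-rich, and *Azin1* (4871 nucleotides, 39.3% GC) and *Amd1* (3204 nucleotides, 41.4% GC) are long and GC-poor. *Sms* (3717 nucleotides, 43.5% GC) is also long and GC-poor, and *Sat1* (1162 nucleotides, 44.3% GC) is short and GC-poor. *Oaz2* has 1843 nucleotides and 53.2% GC. With offsets for both properties, the log2 fold changes were -0.07 for *Oaz1*, -0.04 for *Srm*, 0.12 for *Azin1* and 0.06 for *Amd1*. *Sms* was at -0.04, *Sat1* at 0.10 and *Oaz2* at -0.15 with the offsets, against 0.01, 0.06 and -0.19 without them. *Arg1* (1477 nucleotides, 47.7% GC) was at 0.32 with the offsets and stayed called (edgeR adjusted p = 0.0110), and *Odc1* was at 0.16 (edgeR adjusted p = 0.158). Of the 3 isotype libraries, library 17 lay farthest from CD200-Fc for 6 of the 9 tested genes, namely *Arg1*, *Odc1*, *Oaz1*, *Oaz2*, *Azin1* and *Amd1*. Library 16 did so for 2 and library 18 for 1. How often library 17 lay farthest over all tested genes was not counted, so this is not shown to be particular to these genes.

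Divided by the median length of each gene's coding transcripts, the levels could be ranked across genes. *Oaz1* came first at 1444 CPM per kilobase (range over 6 libraries 1323 to 1667), followed by *Arg1* at 372 (316 to 417) and *Odc1* at 119 (109 to 129). *Sat1* at 102 and *Srm* at 95 CPM per kilobase overlapped in their ranges. *Azin1* at 64.2 and *Amd1* at 50.1 came next, and *Sms* at 34.5 and *Oaz2* at 32.8 CPM per kilobase overlapped. *Arg2* was last at 0.113. *Oaz1* made up 62.3% and *Arg1* 16.1% of the summed per-length level. With the longest transcript these shares were 55.5% and 21.2%, and the overlapping neighbours changed places.

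Several of these genes have near-identical copies elsewhere in the genome, and the authors' estimation can divide reads among them. *Oaz1-ps* on chromosome 17 matches *Oaz1* at 99.3% of 685 bases, and *Amd2* on chromosome 10 matches *Amd1* at 99.6% of 3202 bases. The closeness is shown by a 60-base coding stretch of each pair, from GENCODE vM21 transcripts on GRCm38 (mm10), in which the single differing base is in capitals.
Oaz1: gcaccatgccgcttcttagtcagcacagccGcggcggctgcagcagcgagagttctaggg
Oaz1-ps: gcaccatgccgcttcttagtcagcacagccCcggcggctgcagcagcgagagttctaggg
Amd1: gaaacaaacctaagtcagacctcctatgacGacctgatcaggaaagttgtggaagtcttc
Amd2: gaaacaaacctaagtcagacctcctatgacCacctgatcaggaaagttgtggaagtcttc
Per library, *Oaz1-ps* received 9.38% to 11.2% as many counts as *Oaz1*, and *Amd2* 8.75% to 11.1% as many as *Amd1*. *Sms-ps*, which matches *Sms* at every one of 1101 bases, received 25.5% to 35.8% as many as *Sms*, the highest share of any copy. For *Odc1* the pseudogene *Gm7993*, with 95.7% identity over 1388 bases, received 9.68% to 10.7%. When each gene was summed with its copies, *Arg1* remained the 1 gene called, and *Oaz1* was at -0.17 on the log2 scale (edgeR adjusted p = 0.113). The levels of *Oaz1*, *Odc1*, *Sms* and *Amd1* are uncertain by about these shares.

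**Figure D4:**
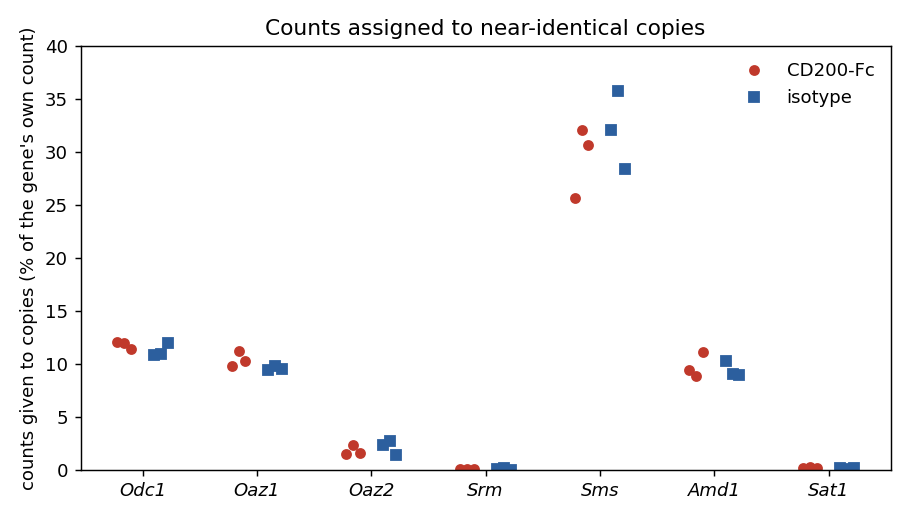
Counts assigned to the near-identical same-strand copies of each gene, as a percentage of the gene's own count, in CD200-Fc libraries (red circles) and isotype libraries (blue squares). *Sms* copies reached 25.7% to 35.8%, those of *Odc1*, *Oaz1* and *Amd1* 8.84% to 12.1%, and those of *Oaz2*, *Srm* and *Sat1* at most 2.73%.

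Beyond the 10 genes, 64 genes of neighbouring steps were read in 7 lists, of which 50 were tested. The call was made for 1 higher gene, *Atp13a3*, and 1 lower gene, *Eif5a*, against 1.48% and 0.595% of all tested genes, so that the list is close to the background. The median log2 fold change over the 50 was 0.003. *Atp13a3* encodes a transporter that takes up polyamines. It had 163, 153 and 146 CPM with CD200-Fc, against 129, 88.7 and 122 CPM with isotype. Every CD200-Fc library was higher, and isotype library 17 was far below the other isotype libraries. Its log2 fold change was 0.44 (SE 0.11, 95% interval 0.21 to 0.67, edgeR adjusted p = 0.0486). The call lay at the threshold and was lost without any 1 library other than isotype 16 (edgeR adjusted p = 0.0532 to 0.188). It was also lost with total counts (edgeR adjusted p = 0.0539) and with robust dispersions (edgeR adjusted p = 0.0779). Without isotype library 17 the log2 fold change was 0.29.

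*Eif5a* encodes the translation factor that carries hypusine, a modification made from spermidine. It fell to 1424, 1393 and 1355 CPM with CD200-Fc, against 1621, 1791 and 1612 CPM with isotype. All CD200-Fc libraries lay below all isotype libraries, and isotype library 17 stood highest. The log2 fold change was -0.27 (SE 0.05, 95% interval -0.37 to -0.17, edgeR adjusted p = 0.0125). It stayed called with GC content and length offsets (-0.19, edgeR adjusted p = 0.0380) and lost the call without CD200-Fc library 35, 36 or 38 (edgeR adjusted p = 0.0708, 0.0516 and 0.0656). The enzymes that make hypusine were not called, and none had an unadjusted p under 0.05. *Dhps* was at 41.7 ± 1.58 CPM with CD200-Fc and 45.7 ± 4.59 CPM with isotype (SD, n = 3 each), and the related factor gene *Eif5a2* at 7.95 ± 2.80 and 7.02 ± 2.10 CPM.

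None of the 7 tested arginine transport genes was called by edgeR, and DESeq2 called 0 of the 5 to which it gave an adjusted p. Of the 7, 0 were higher and 1 was lower at an unadjusted p under 0.05, against 9.43% and 7.69% of all tested genes. *Slc3a2*, the heavy chain shared by several amino acid transporters, was abundant at 795 ± 17.5 CPM with CD200-Fc and 782 ± 29.1 CPM with isotype (SD, n = 3 each). *Slc7a6*, which pairs with it to exchange arginine, had 47.3, 40.6 and 43.5 CPM with CD200-Fc, against 50.7, 53.2 and 51.5 CPM with isotype (log2 fold change -0.24, edgeR adjusted p = 0.151). The arginine transporter gene *Slc7a3* was at 0.09 on the log2 scale. Among 6 tested genes for other arginine enzymes none was called by edgeR, and DESeq2 called 0 of the 4 with its adjusted p. Of the 6, 1 was higher and 0 were lower at an unadjusted p under 0.05, against the same 9.43% and 7.69%. *Gatm*, the first enzyme of creatine synthesis, was at 0.24 on the log2 scale, the deiminase gene *Padi2* at -0.16 and *Asl*, argininosuccinate lyase, at -0.06. Ornithine can also be linked to proline, and there too 0 of 7 tested genes were called by edgeR, and DESeq2 called 0 of the 6 to which it gave an adjusted p. At an unadjusted p under 0.05, 1 of the 7 was higher and 2 were lower, against 9.43% and 7.69% of all tested genes. *Aldh18a1*, which makes the proline precursor, was at 0.16 (edgeR adjusted p = 0.187).

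Of 7 tested further polyamine genes, *Atp13a3* was the 1 called by edgeR, and also the 1 that DESeq2 called of the 4 with its adjusted p. At an unadjusted p under 0.05, 1 of the 7 was higher and 1 was lower, against 9.43% and 7.69% of all tested genes. *Smox*, the oxidase that turns spermine back into spermidine, had 100, 91.8 and 99.3 CPM with CD200-Fc, against 110, 113 and 104 CPM with isotype. Every CD200-Fc library of *Smox* lay below isotype, as for 11.2% of all tested genes, and the log2 fold change was -0.17 (SE 0.06, edgeR adjusted p = 0.201). *Amd2*, the near-identical copy of *Amd1*, was at 0.19 (edgeR adjusted p = 0.596). The methionine cycle feeds *Amd1* its substrate, and none of its 10 tested genes was called by edgeR or by DESeq2. Of the 10, 1 was higher and 2 were lower at an unadjusted p under 0.05, against 9.43% and 7.69% of all tested genes. *Mat2a*, which makes that substrate, was at 416 ± 7.60 CPM with CD200-Fc and 418 ± 23.5 CPM with isotype (SD, n = 3 each), while *Ahcy* was at 0.18 and the salvage gene *Mri1* at -0.24 on the log2 scale. Of 9 tested regulators of *Odc1* or *Arg1* transcription none was called by edgeR, 0 had an unadjusted p under 0.05, and DESeq2 called 0 of the 6 to which it gave an adjusted p. *Myc*, a known activator of *Odc1*, had 94.6, 95.8 and 94.4 CPM with CD200-Fc, against 105, 112 and 96.6 CPM with isotype (log2 fold change -0.14, edgeR adjusted p = 0.321). *Stat6*, which activates *Arg1* in macrophages, was at -0.10 (edgeR adjusted p = 0.456).

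**Figure D5:**
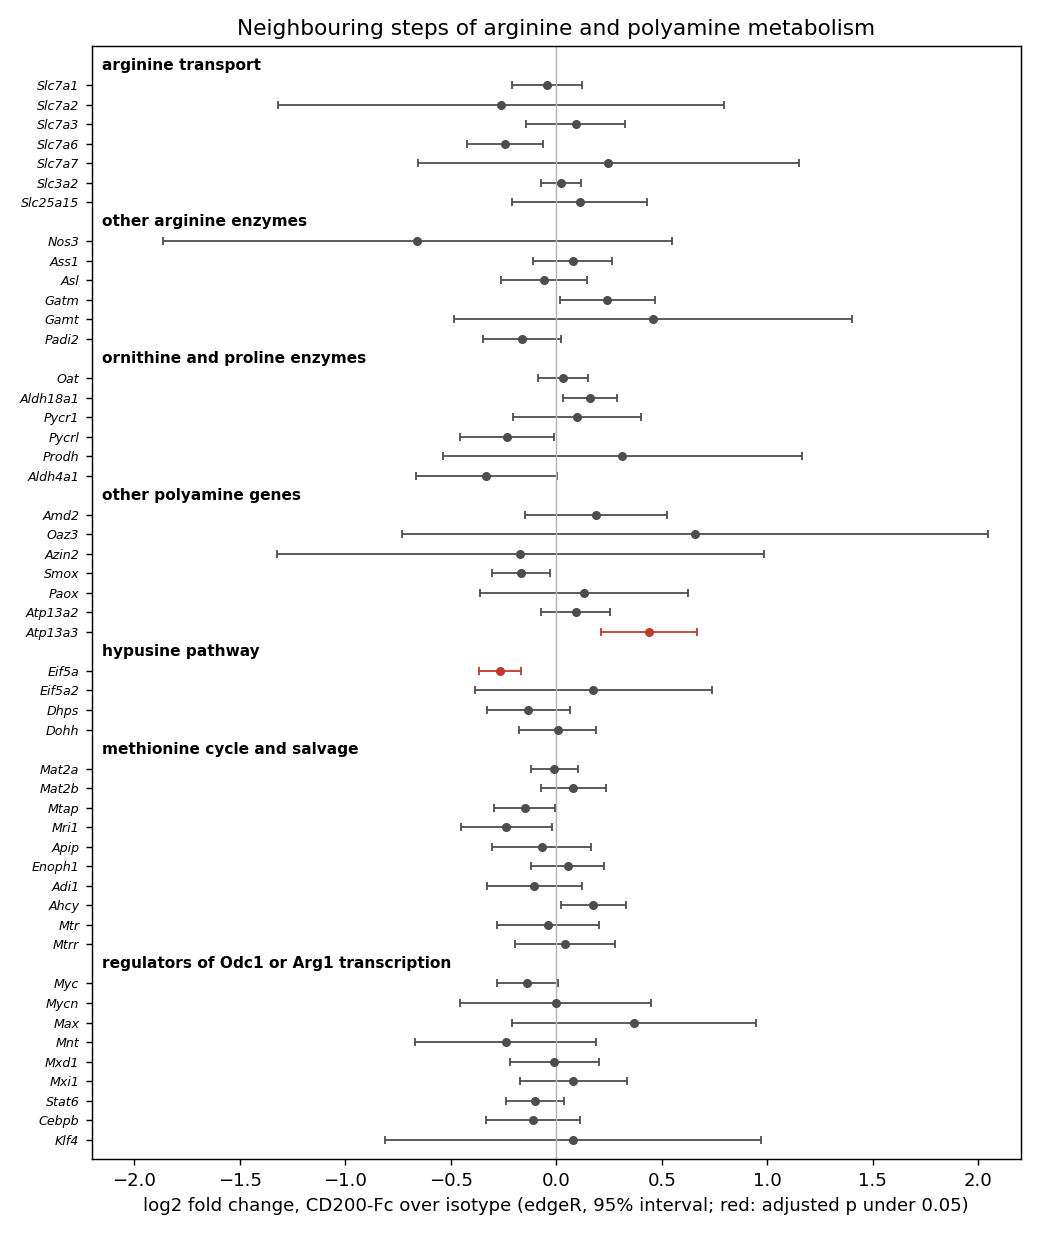
log2 fold change, CD200-Fc over isotype, with 95% intervals from edgeR, of 49 of the 50 tested genes of neighbouring steps, grouped by list, with red for an adjusted p under 0.05. The red genes are *Atp13a3* at 0.44 and *Eif5a* at -0.27, and the widest interval, that of *Oaz3*, belongs to a gene under 1 CPM.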

How the data were processed

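Total RNA (10 ng) was made into cDNA and sequenced on an Illumina NextSeq. The authors demultiplexed reads with bcl2fastq 2.17.1.14, aligned them to mm10 with STAR 2.5.3a, and obtained gene values from Partek. The expected counts of 22554 genes were deposited by the authors as Partek's expectation-maximization estimates, not normalized, which can split reads between near-identical copies. The normalized signal of 17194 genes, deposited by the authors, was used in alternatives only. Which annotation release was used is not stated in those sources.

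Expected counts were rounded, filtered with filterByExpr, scaled by TMM and tested in edgeR 4.0.16 (R 4.3.3), with DESeq2 1.42.0 and limma 3.58.1 as alternatives. The authors' lognormal test with shrinkage in Partek was not available here. The common biological coefficient of variation was 10.8%. Lengths and GC content came from GENCODE vM21, and copies from BLAST+ 2.17.0 (at least 200 bases at 90% identity). The fit was checked on simulated data. Gene ends are 1-based.

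The members and lists were chosen with earlier results of these data known. Of each list, the called genes, the 2 with the smallest unadjusted p beyond these and the most abundant were named. *Nos2*, *Max* and the cell type markers named fall outside this rule and were chosen after their values were seen. A gene that the rule names is not reported here, but is counted in its list.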

Additional observations from a re-analysis of the deposited data

How the results depend on the processing

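Of 171 member results under 19 alternatives, 165 kept their direction and side of the threshold, or stayed uncalled, and 8 of the 9 tested genes kept their sign in all 19, *Sms* being the exception. The number of members called was 1, and 3 with DESeq2, and 0 to 2 without 1 library. Without CD200-Fc library 35, 36 or 38 it was 0, and without isotype 16 it was 2. Over all genes the 293 calls became 878 with DESeq2, 450 with at least 10 counts in every sample, and 44 to 312 without 1 library. The fewest, 44, came without CD200-Fc library 35. The number of neighbouring genes called was 2, but 1 with total counts, 1 with robust dispersions and 0 to 2 without 1 library. The difference in the log2 ratio of *Arg1* to *Arg2* was -0.05, against 0.10 with the normalized signal, 0.098 with 1 count added and -0.56 to 0.25 without 1 library. It rests on 2 to 7 *Arg2* counts. The difference in the log2 ratio of *Azin1* to the antizymes was 0.39, against 0.20 with counts divided by GC content and length offsets. That setting and the summing of near-identical copies were chosen after seeing the data, and the summing changed no call. The cause of these shifts was not tested. No paired analysis was possible because the groups share no sample numbers.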

Other observations

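*Max*, the partner of *Myc*, varied within each condition by more than its means differed between them, at 41.1 ± 15.8 CPM with CD200-Fc and 31.9 ± 12.5 CPM with isotype (SD, n = 3 each). It had 23.0, 52.5 and 47.7 CPM with CD200-Fc and 28.1, 21.7 and 45.9 CPM with isotype, and it was chosen after its values were seen. CD200-Fc libraries 36 and 38 and isotype library 18 were high, and the rest low. The log2 fold change was 0.37 (SE 0.27, edgeR adjusted p = 0.531).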
